A study of Mus musculus with 2 samples.

Results

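The nuclear genes of oxidative phosphorylation (OXPHOS) were followed in peak lists of the chromatin remodeller SRCAP from mouse embryonic stem cells (mESCs). Members were chosen by symbol. They were the protein-coding genes of the GENCODE vM21 annotation (genome build GRCm38) on nuclear chromosomes whose symbols start with Nduf, Uqcr, Atp5 or Cox4 to Cox8, together with Sdha, Sdhb, Sdhc, Sdhd and Cyc1. This gave 94 genes of 21911 protein-coding nuclear genes, with 46 in complex I, 4 in complex II, 9 in complex III, 18 in complex IV and 17 in complex V. Atp5o carries 2 overlapping gene identifiers and was counted as 1 gene.

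Binding was mapped by CUT&RUN, which cuts out DNA beside an antibody-bound protein, in 1 library with an antibody against GFP and 1 library with an antibody against SRCAP. Both came from SYAT cells, CGR8 mESCs in which both Srcap alleles carry YPet-AID at the 3′ end and the receptor OsTir1 is stably expressed, so the GFP antibody reads the YPet tag and the SRCAP antibody the protein itself. The study kept its control SYAT cells in auxinole, an inhibitor of OsTir1, but the labels give no treatment for either library, and the written methods name only the SRCAP antibody for this assay, so the assay of the GFP library rests on its label. Each list came from a single library of a single cell line, no library without a specific antibody was analysed, and the lists hold no expression values, so the cell type also rests on the labels.

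There were 28718 peaks in the GFP list, and the SRCAP list held 28167. Each peak carries a whole-number score. The lowest score was 13 and the median 47 in both lists. What the score measures was not stated, so it was used to rank peaks within a list. Library depth is unknown, since no read counts were given. A gene was counted in a list when the midpoint of at least 1 peak lay from 1000 bp upstream to 500 bp downstream of any of its transcription start sites (TSSs). Intervals are 95% Wilson intervals over genes. They cover counting error only, and no p-value is given because each antibody had 1 library and genes are not replicates.

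Oxidative phosphorylation is carried out in the inner mitochondrial membrane. Complexes I and II pass electrons from NADH and succinate to ubiquinone, complex III passes them on to cytochrome c, and complex IV hands them to oxygen, while complexes I, III and IV pump protons that drive ATP synthesis by complex V. Most subunits are encoded in the nucleus on many chromosomes, and their genes are known targets of NRF1, GABP, YY1 and oestrogen-related receptors. SRCAP is the catalytic subunit of a remodelling complex that exchanges histone H2A for H2A.Z, a variant known from the nucleosomes next to active start sites.

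The promoter sequences of the strongest members show how much the underlying DNA varied. Printed are the 200 bases directly upstream of the most upstream nearby TSS, for the member of each complex with the highest value of the lower of its GFP and SRCAP scores, and for Cyc1 and Cox6a2, chosen after their values were seen as members without a promoter peak. They were read from GRCm38 on the strand of the gene, at chr19:3912775-3912974 (minus) for Ndufs8, chr4:140961003-140961202 (plus) for Sdhb, chr9:108936433-108936632 (plus) for Uqcrc1, chr19:7217617-7217816 (minus) for Cox8a, chr11:96075671-96075870 (minus) for Atp5g1, chr15:76343323-76343522 (plus) for Cyc1 and chr7:128206388-128206587 (minus) for Cox6a2. None of these stretches overlapped an annotated exon. Capitals mark CpG dinucleotides.
Ndufs8: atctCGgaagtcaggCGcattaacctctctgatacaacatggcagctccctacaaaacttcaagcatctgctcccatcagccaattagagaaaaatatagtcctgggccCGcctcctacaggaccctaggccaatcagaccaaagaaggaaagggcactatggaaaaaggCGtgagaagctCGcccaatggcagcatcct
Sdhb: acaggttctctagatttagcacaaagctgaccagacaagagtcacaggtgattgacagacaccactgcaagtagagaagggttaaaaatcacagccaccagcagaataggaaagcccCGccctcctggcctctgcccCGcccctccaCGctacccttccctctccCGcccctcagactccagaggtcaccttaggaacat
Uqcrc1: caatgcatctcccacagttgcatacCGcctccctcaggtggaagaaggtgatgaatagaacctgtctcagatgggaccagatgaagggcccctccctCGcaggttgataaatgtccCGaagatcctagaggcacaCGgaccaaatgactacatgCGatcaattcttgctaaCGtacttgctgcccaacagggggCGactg
Cox8a: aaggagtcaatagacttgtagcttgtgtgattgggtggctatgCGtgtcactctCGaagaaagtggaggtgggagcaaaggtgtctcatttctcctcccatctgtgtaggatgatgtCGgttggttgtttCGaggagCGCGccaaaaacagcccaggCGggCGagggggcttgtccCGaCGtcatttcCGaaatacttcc
Atp5g1: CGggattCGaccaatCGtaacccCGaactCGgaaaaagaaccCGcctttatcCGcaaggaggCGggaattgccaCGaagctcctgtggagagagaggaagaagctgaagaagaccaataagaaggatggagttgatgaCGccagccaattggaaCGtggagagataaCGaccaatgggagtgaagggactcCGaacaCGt
Cyc1: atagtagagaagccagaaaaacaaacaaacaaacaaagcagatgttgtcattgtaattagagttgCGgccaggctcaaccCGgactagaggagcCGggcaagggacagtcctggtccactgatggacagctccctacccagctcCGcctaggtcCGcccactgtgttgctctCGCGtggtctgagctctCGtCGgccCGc
Cox6a2: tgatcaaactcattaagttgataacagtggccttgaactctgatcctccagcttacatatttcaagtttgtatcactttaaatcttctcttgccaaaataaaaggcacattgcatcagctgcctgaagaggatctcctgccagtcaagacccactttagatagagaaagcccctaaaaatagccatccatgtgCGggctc

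The 7 stretches held from 1 CpG in Cox6a2 to 14 CpGs in Atp5g1. Sdhb, with 4 CpGs, and Ndufs8, with 5, carried peaks in both lists, whereas Cyc1, with 10, carried none. All 200 bases lay inside the GFP peak and the SRCAP peak of Ndufs8, Uqcrc1 and Atp5g1. For Sdhb the GFP peak covered all 200 bases and the SRCAP peak the 75 nearest to the TSS.

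Most OXPHOS genes had a promoter peak. The GFP list held 64 of 94 members (68.1%, interval 58.1 to 76.6), beside 35.0% of all protein-coding genes. The SRCAP list held 67 of 94 (71.3%, 61.4 to 79.4), beside 35.7% of all protein-coding genes. Both lists held 55 of 94 (58.5%, 48.4 to 67.9), beside 27.0% of all protein-coding genes. In each case the lower bound for the members lay above the background. A further 9 members had a peak only in the GFP list, 12 only in the SRCAP list, and 18 had none (19.1%, 12.5 to 28.3), where 56.3% of all protein-coding genes had none.

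The members found with the 2 antibodies were largely the same genes. Of the 64 members in the GFP list, 55 were also in the SRCAP list (85.9%, 75.4 to 92.4), and of the 67 in the SRCAP list the same 55 were in the GFP list (82.1%, 71.3 to 89.4). Over all protein-coding genes these shares were 77.2% and 75.8%, and both lie inside the members' intervals.

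Members had more annotated start sites than other genes, with a median of 4 against 3, and each start site adds a window. Among the 13 members with a single TSS, 5 had a GFP peak (38.5%, 17.7 to 64.5), against 14.9% of the 4858 protein-coding genes with a single TSS, and 5 had a SRCAP peak, against 15.9%. The shares were thus lower in this small group and in its background alike.

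**Figure D1:**
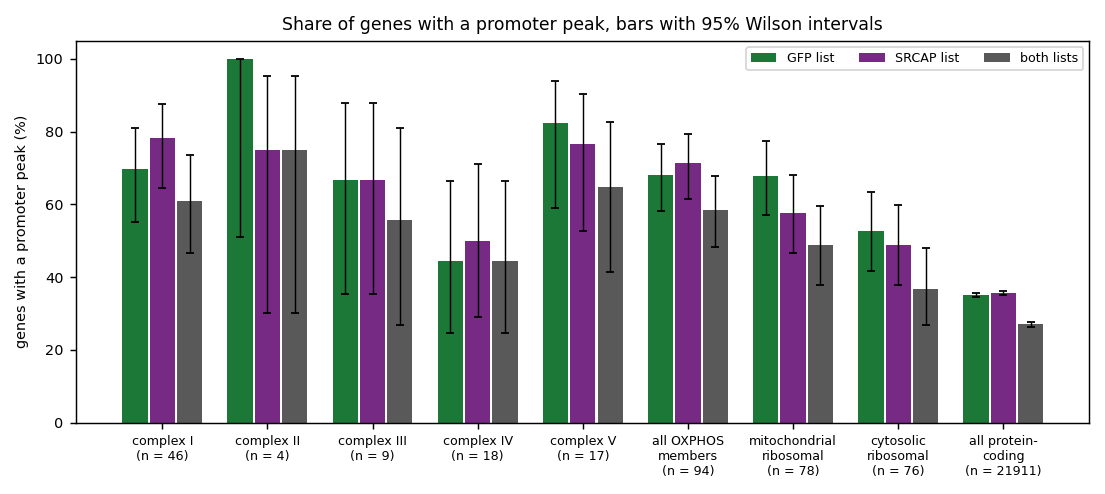
Percentage of genes with a promoter peak (vertical axis) in the GFP list, the SRCAP list and both lists for each complex, all 94 members, the ribosomal protein genes and all 21911 protein-coding genes, with n below each group and 95% Wilson intervals as error bars. Complex IV has the lowest bars of the 5 complexes, at 44.4% and 50.0%, and the intervals of the small complexes II and III are wide.

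The genes of 2 other large protein machines were counted in the same way. Of the 78 mitochondrial ribosomal protein genes, whose products translate the subunits encoded in mitochondrial DNA, 67.9% (57.0 to 77.3) had a GFP peak, 57.7% (46.6 to 68.0) a SRCAP peak and 48.7% both. Of the 76 cytosolic ribosomal protein genes, 52.6% (41.6 to 63.5) had a GFP peak, 48.7% (37.8 to 59.7) a SRCAP peak and 36.8% (26.9 to 48.1) both. The OXPHOS shares were nearest to those of the mitochondrial ribosome. They were above those of the cytosolic ribosome, with GFP intervals that overlap (58.1 to 76.6 against 41.6 to 63.5) and SRCAP intervals that do not (61.4 to 79.4 against 37.8 to 59.7). With windows of 2500 bp on either side the GFP share of the cytosolic ribosomal genes was 69.7%, beside 73.4% for OXPHOS, so the GFP difference depended on the window. The SRCAP shares were then 57.9% and 73.4%.

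The 5 complexes differed in their shares, by amounts that their sizes leave uncertain. In the GFP list the shares were 69.6% (55.2 to 80.9) for complex I, 100.0% (51.0 to 100.0) for the 4 genes of complex II, 66.7% (35.4 to 87.9) for complex III, 44.4% (24.6 to 66.3) for complex IV and 82.4% (59.0 to 93.8) for complex V. In the SRCAP list they were 78.3% (64.4 to 87.7), 75.0% (30.1 to 95.4), 66.7% (35.4 to 87.9), 50.0% (29.0 to 71.0) and 76.5% (52.7 to 90.4). Complex IV was lowest in both lists, and complexes I and V were the groups whose lower bounds exceeded the background in both. Every interval of a complex overlapped those of the other complexes.

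**Figure D2:**
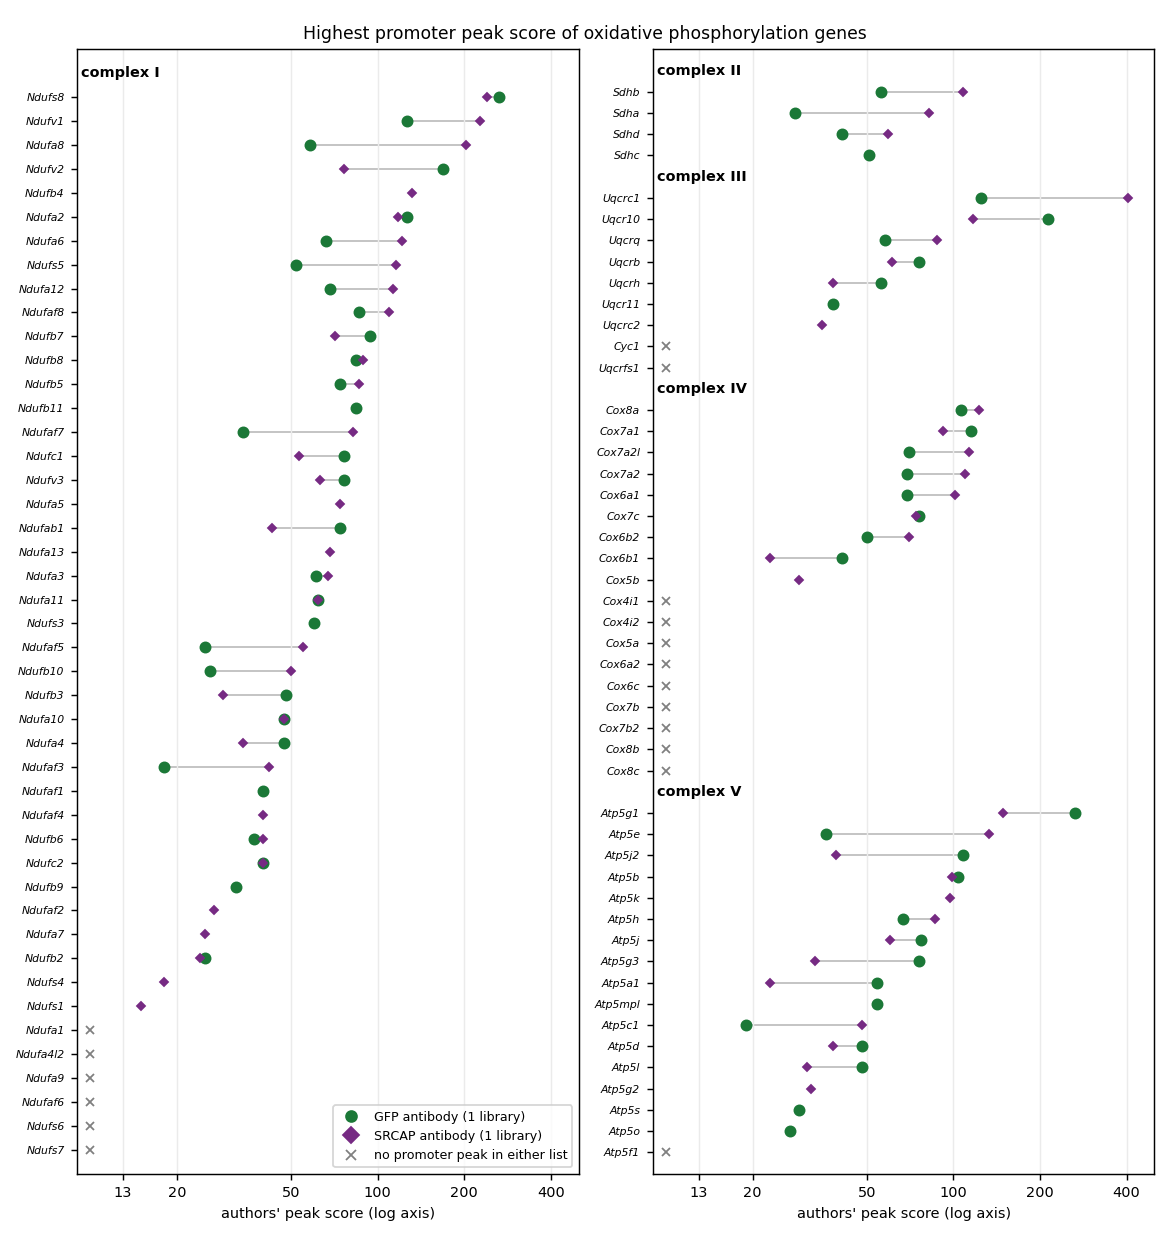
Highest promoter peak score of the members on a log axis, without 1 member of complex I, with circles for the GFP list, diamonds for the SRCAP list, grey lines joining the scores of 1 gene and crosses for the 18 members without a promoter peak. Scores of members run from 18 to 264 (GFP) and from 15 to 404 (SRCAP), and 9 of the 18 crosses are in complex IV.

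Complex I, the NADH dehydrogenase, had 28 of its 46 genes in both lists. Its 7 core subunits, which carry the flavin and iron-sulphur clusters from NADH to ubiquinone, were divided. Of these, 4 had peaks in both lists, among them Ndufs8, Ndufv1 and Ndufv2, while Ndufs3 was in the GFP list only, Ndufs1 in the SRCAP list only, and Ndufs7 in neither. The GFP peak of Ndufs3 scored 60 (chr2:90904275-90904653).

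Ndufs8, an iron-sulphur subunit of the arm that faces the matrix, had the highest lower-of-both score of all members. Its GFP peak (chr19:3912385-3913052) scored 263 and its SRCAP peak (chr19:3912366-3913045) scored 240. These peaks were 668 and 680 bp wide, their midpoints lay 13 bp apart, and both scores were near the top of their list, at percentiles 98.0 and 97.8 of the best promoter scores of all protein-coding genes.

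Ndufv1, which binds the flavin that takes electrons from NADH, scored 126 in the GFP list (chr19:4012618-4013191) and 226 in the SRCAP list (chr19:4012690-4013180). Ndufa2, an accessory subunit, scored 126 and 118. For Ndufa2 the midpoints of both peaks lay 1 and 2 bp from the TSS of Ik, the gene transcribed in the other direction, and 137 and 133 bp from its own, so these peaks could not be assigned to 1 gene of the pair.

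Most of the 30 accessory subunits had a peak. In the GFP list 22 of 30 had one (73.3%, 55.6 to 85.8) and in the SRCAP list 25 of 30 (83.3%, 66.4 to 92.7), beside 5 of 7 core subunits in each list (71.4%, 35.9 to 91.8), and these intervals overlap. The 20 in both lists were Ndufa2, Ndufa3, Ndufa4, Ndufa6, Ndufa8, Ndufa10, Ndufa11, Ndufa12, Ndufab1, Ndufb2, Ndufb3, Ndufb5, Ndufb6, Ndufb7, Ndufb8, Ndufb10, Ndufc1, Ndufc2, Ndufs5 and Ndufv3. Among them are the acyl carrier protein Ndufab1 and Ndufa4, grouped here by its symbol although its product is known from complex IV. Ndufa1, Ndufa9 and Ndufs6 had no peak.

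Several accessory genes were found with a single antibody. Ndufb9 and Ndufb11 were in the GFP list only. Ndufb11, an X-linked subunit of the membrane arm, had the highest score among the members found with GFP only, at 84 (chrX:20617380-20617780). It lies head to head with Rbm10, with TSSs 3 bp apart.

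Ndufa5, Ndufa7, Ndufa13, Ndufb4 and Ndufs4 were in the SRCAP list only. Ndufb4, a membrane-arm subunit, scored 132 (chr16:37654395-37654581), the highest score of any member found with 1 antibody. Ndufa5 scored 74 (chr6:24527580-24527756), and its peak was 177 bp wide where Ndufb4 had 187 bp, both narrower than the members' median of 374 bp in this list.

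The product of Ndufa13 is also known as GRIM-19. Its SRCAP peak of score 68 was named here after its value was seen, because its midpoint lay 877 bp upstream of the TSS, farther than for any other member, and nearer to the TSS of Yjefn3, at 723 bp. No GFP midpoint lay nearer than 860 bp to a TSS of Ndufa13.

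The 8 assembly factors of complex I build the enzyme but are not part of it, and 7 of them had a peak in at least 1 list. This share was 87.5% (52.9 to 97.8), beside 80.9% of all members and 43.7% of all protein-coding genes. Ndufaf3, Ndufaf5, Ndufaf7 and Ndufaf8 were in both lists, Ndufaf1 in the GFP list only, Ndufaf2 and Ndufaf4 in the SRCAP list only, and Ndufaf6 in neither. Ndufaf7, a methyltransferase, was the member in both lists whose promoter peaks did not overlap. Its GFP peak scored 34 at chr17:78937357-78937579, downstream of the nearest TSS of the gene. Its SRCAP peak scored 82 at chr17:78936857-78937306. The midpoint of this SRCAP peak lay 54 bp from another TSS of Ndufaf7 and 16 bp from the TSS of the divergent gene Cebpz. Ndufa4l2, a relative of Ndufa4 with restricted expression, had no peak.

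Complex II, succinate dehydrogenase, has 4 subunits, and all 4 genes had a GFP peak. Sdha, the flavoprotein that oxidises succinate, scored 28 in the GFP list (chr13:74350003-74350530) and 82 in the SRCAP list (chr13:74349989-74350529). Sdhb, the iron-sulphur subunit, scored 56 in the GFP list (chr4:140960874-140961298) and 108 in the SRCAP list (chr4:140961128-140961306). Sdhd, a membrane anchor, scored 41 in the GFP list (chr9:50603564-50603817) and 59 in the SRCAP list (chr9:50603727-50603990). The SRCAP score was thus the higher of the pair in these 3 genes, and both peaks of all 3 overlapped.

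Sdhc, the other membrane anchor, had a GFP peak of score 51 and no SRCAP peak. In 3 of the 4 genes of complex II a TSS of another gene lay on the other strand within 1000 bp upstream, among them Ccdc127 beside Sdha and Timm8b beside Sdhd.

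Complex III, the cytochrome bc1 complex, had 6 of its 9 genes in each list and 5 in both. Neither of its nuclear catalytic subunits had a peak in either list, neither Cyc1, which encodes cytochrome c1 (chr15:76343523-76346260), nor Uqcrfs1, which encodes the Rieske iron-sulphur protein (chr13:30540308-30545362). The nearest midpoints lay 6603 bp (GFP) and 6683 bp (SRCAP) from a TSS of Cyc1, and 14278 bp and 14241 bp from that of Uqcrfs1. For 0 of 2 genes the upper bound of the interval is 65.8%, above the background, so this count does not set these genes apart.

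The core proteins of complex III, which line its matrix side, both had SRCAP peaks. Uqcrc1 had the highest SRCAP score of all members, 404 (chr9:108936265-108936696, percentile 99.9 among best promoter scores), with a GFP peak of score 125 (chr9:108936304-108936648) whose midpoint lay 5 bp away. Uqcrc2 had a SRCAP peak of score 35 (chr7:120635000-120635243) and no GFP peak.

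The 5 small subunits of complex III all had a GFP peak and 4 a SRCAP peak. Uqcr10 scored 214 in the GFP list (chr11:4704345-4704945) and 117 in the SRCAP list (chr11:4704121-4704944). Uqcrq scored 58 in the GFP list (chr11:53430847-53431487) and 88 in the SRCAP list (chr11:53430895-53431388). In both genes the midpoints lay nearer to the TSS of the neighbour, Zmat5 for Uqcr10 and Gdf9 for Uqcrq.

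Uqcrb, which takes part in the quinone site, scored 76 in the GFP list (chr13:66904914-66905679) and 61 in the SRCAP list (chr13:66905224-66905562). Uqcrh, the hinge protein next to cytochrome c1, scored 56 in the GFP list (chr4:116074854-116075343) and 38 in the SRCAP list (chr4:116075168-116075323). The midpoint of this SRCAP peak lay 23 bp from the TSS of Lrrc41 and 175 bp from that of Uqcrh. Uqcr11 had a GFP peak of score 38 (chr10:80406939-80407127) and no SRCAP peak. Complex III scores thus ran from 38 to 214 (GFP) and from 35 to 404 (SRCAP), and the order of the genes differed between lists.

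Complex IV, cytochrome c oxidase, had the lowest share of genes with a peak, 8 of 18 in both lists and 9 in neither. Several of its subunits exist as pairs of a widely expressed form and a form restricted to muscle, lung or testis. Of the 11 widely expressed forms, 6 had a GFP peak (54.5%, 28.0 to 78.7) and 7 a SRCAP peak (63.6%, 35.4 to 84.8). Of the 7 restricted forms, 2 had a peak in each list (28.6%, 8.22 to 64.1), and these intervals overlap. The intervals of both kinds of form also held the background, 35.0% (GFP) and 35.7% (SRCAP) of all protein-coding genes. These counts therefore set neither kind apart.

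The widely expressed forms in both lists were Cox6a1, Cox6b1, Cox7a2, Cox7a2l, Cox7c and Cox8a. Cox8a had the highest lower-of-both score of the complex, 106 in the GFP list (chr19:7217619-7218273) and 123 in the SRCAP list (chr19:7217583-7218086). Cox7c scored 76 (chr13:86046770-86047080) and 74 (chr13:86046580-86046992). Cox7a2l, a factor that joins complexes III and IV into supercomplexes, was also in both.

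Cox5b was found with SRCAP only, with a score of 29 (chr1:36691185-36691569). Cox4i1, Cox5a, Cox6c and Cox7b had no promoter peak although they encode the usual forms of their subunits. The GFP midpoint nearest to a TSS of Cox4i1 lay 1188 bp away, just beyond the window, and that of Cox6c 188779 bp away. Members without a peak therefore included both near misses and genes far from any peak.

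Among the restricted forms, Cox4i2, Cox6a2, Cox7b2, Cox8b and Cox8c had no peak, while Cox7a1 and Cox6b2 were in both lists. Cox7a1, the heart and skeletal muscle form, had the second highest lower-of-both score of the complex, with 115 in the GFP list (chr7:30183905-30184419) and 92 in the SRCAP list (chr7:30183905-30184166). Cox6b2, the testis form, was chosen after its values were seen. It scored 50 in the GFP list (chr7:4752362-4753480) and 70 in the SRCAP list (chr7:4752159-4752554), and the midpoints of these highest-scoring peaks lay 564 bp apart, the widest gap of any member in both lists. A second SRCAP peak lay in its windows, with its midpoint 19 bp from a TSS. The nearest TSS of another protein-coding gene lay at least 6064 bp from these midpoints for Cox7a1 and 6549 bp for Cox6b2, far outside the window.

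Complex V, the ATP synthase, had 11 of 17 genes in both lists and 1 in neither. All 5 genes of the F1 head, where ATP is made, were in both (Atp5a1, Atp5b, Atp5c1, Atp5d and Atp5e), a count whose interval is 56.6 to 100.0%. Atp5b, the catalytic beta subunit, scored 104 in the GFP list (chr10:128083009-128083297) and 99 in the SRCAP list (chr10:128082957-128083306).

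The c ring, which turns with the flow of protons, is encoded by 3 genes for the same mature protein. Atp5g1 scored 264 in the GFP list (chr11:96075638-96076214), the highest GFP score of all members, and 149 in the SRCAP list (chr11:96075611-96076211). Atp5g3 was in both lists, and Atp5g2 in the SRCAP list only with a score of 32 (chr15:102671044-102671270). The genes for this protein thus spanned from the highest member score to absence in the GFP list.

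Of the stalk that holds the head still, Atp5h and Atp5j were in both lists, Atp5o in the GFP list only and Atp5f1 in neither. Atp5h scored 67 in the GFP list (chr11:115419698-115420033) and 86 in the SRCAP list (chr11:115419771-115420073). Atp5j shared its peaks with Gabpa, which encodes the DNA-binding part of GABP, a factor known to act on OXPHOS promoters. The midpoints lay 7 bp (GFP) and 27 bp (SRCAP) from the TSS of Gabpa. They lay 73 and 66 bp from the nearest TSS of Atp5j, which was a different one for each peak. Both genes have the same scores, 77 and 60.

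Of the membrane subunits, Atp5j2 and Atp5l were in both lists. Atp5k, subunit e at the dimer interface, was in the SRCAP list only, with a score of 97 (chr5:108434340-108434755). Atp5mpl was in the GFP list only, with a score of 54 (chr12:111967032-111967329). Atp5s, a coupling factor grouped here as a regulator, was in the GFP list only, with a score of 29 (chr12:69724983-69725316).

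Members in both lists had higher scores than those in 1 list. The 55 members in both had a median GFP score of 67 and a median SRCAP score of 74, while the 9 members with GFP only had a median of 40 (range 27 to 84) and the 12 with SRCAP only a median of 33.5 (range 15 to 132). The same held over all protein-coding genes, with GFP medians of 66 and 38 and SRCAP medians of 69 and 40. The ranges overlapped, so a single score did not tell these groups apart. No member found in 1 list had a peak of the other list overlapping its promoter peak.

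The scores themselves were ordinary for promoters. Over the 64 members in the GFP list the median score was 60.5, beside 57 over all protein-coding genes with a promoter peak, and over the 67 in the SRCAP list it was 68, beside 60. A score in the upper 10% of promoter scores, at least 141 (GFP) or 144 (SRCAP), was reached by 4 members (6.25%, 2.46 to 15.0) and 5 members (7.46%, 3.23 to 16.3), beside 10.1% and 10.3% of all genes with a promoter peak. By complex, the median GFP score was 61.5 in complex I, 46 in complex II, 67 in complex III, 69.5 in complex IV and 54 in complex V, and the median SRCAP scores were 65, 82, 74.5, 92 and 48. Complex IV, with the lowest share of genes in the lists, had the highest medians of the 5 complexes, over 8 and 9 genes.

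Over the 55 members in both lists, the GFP and SRCAP scores were positively related. Spearman's rho was 0.545 and Pearson's r on log10 scores 0.552, beside 0.563 and 0.6 over the 5923 protein-coding genes in both lists. These are descriptions across genes, which are not independent replicates and which here share a cell line. The GFP score was the higher in 24 members, the SRCAP score in 28, and 3 had equal scores.

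**Figure D3:**
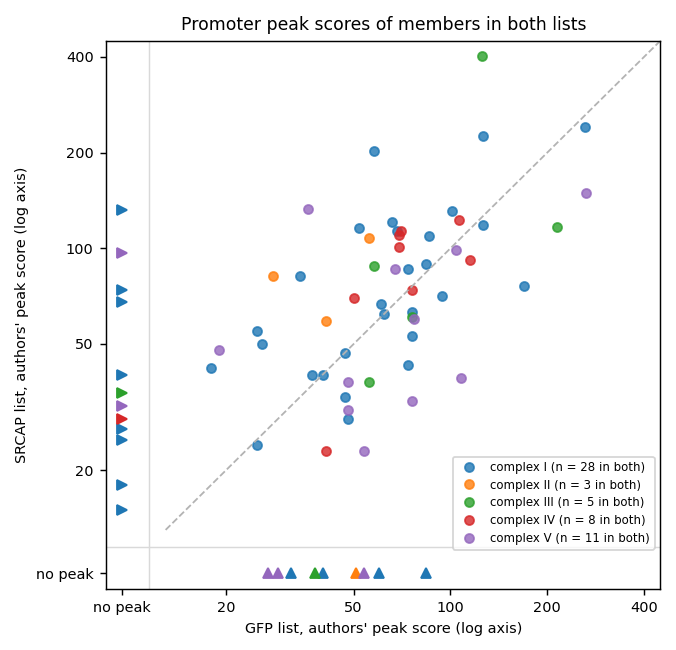
SRCAP score against GFP score on log axes for the 55 members in both lists, coloured by complex, with members found in 1 list on the margins marked no peak and a dashed line where scores are equal. The point for Uqcrc1 at 125 and 404 lies farthest above the other points, and the 12 SRCAP-only and 9 GFP-only members reach 132 and 84.

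The peaks lay over or just upstream of the start site. Relative to the nearest TSS of the gene, with upstream negative, the median midpoint was at -103.5 bp (GFP) and -72 bp (SRCAP), beside -129 and -92 bp over all protein-coding genes. The TSS was inside the peak for 45 of 64 members in the GFP list (70.3%, 58.2 to 80.1), beside 52.5% of all genes, and for 52 of 67 in the SRCAP list (77.6%, 66.3 to 85.9), beside 59.9%. In both lists the lower bound for the members was above the value over all genes. The nearest of all TSSs of a gene was used here, and members had a median of 4 TSSs against 3. Whether the number of TSSs or the peak width accounts for this difference was not tested. Peaks of members had a median width of 375.5 bp in the GFP list, beside 350 bp, and 374 bp in the SRCAP list, beside 309 bp.

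For members in both lists the promoter peaks of the 2 antibodies overlapped by at least 1 bp in 54 of 55 (98.2%, 90.4 to 99.7), beside 94.8% of all protein-coding genes in both lists. The median distance between the midpoints of the highest-scoring peaks was 76 bp, beside 65 bp. It was at most 100 bp in 32 of 55 (58.2%, 45.0 to 70.3), beside 66.4%. Both intervals held the values over all genes.

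**Figure D4:**
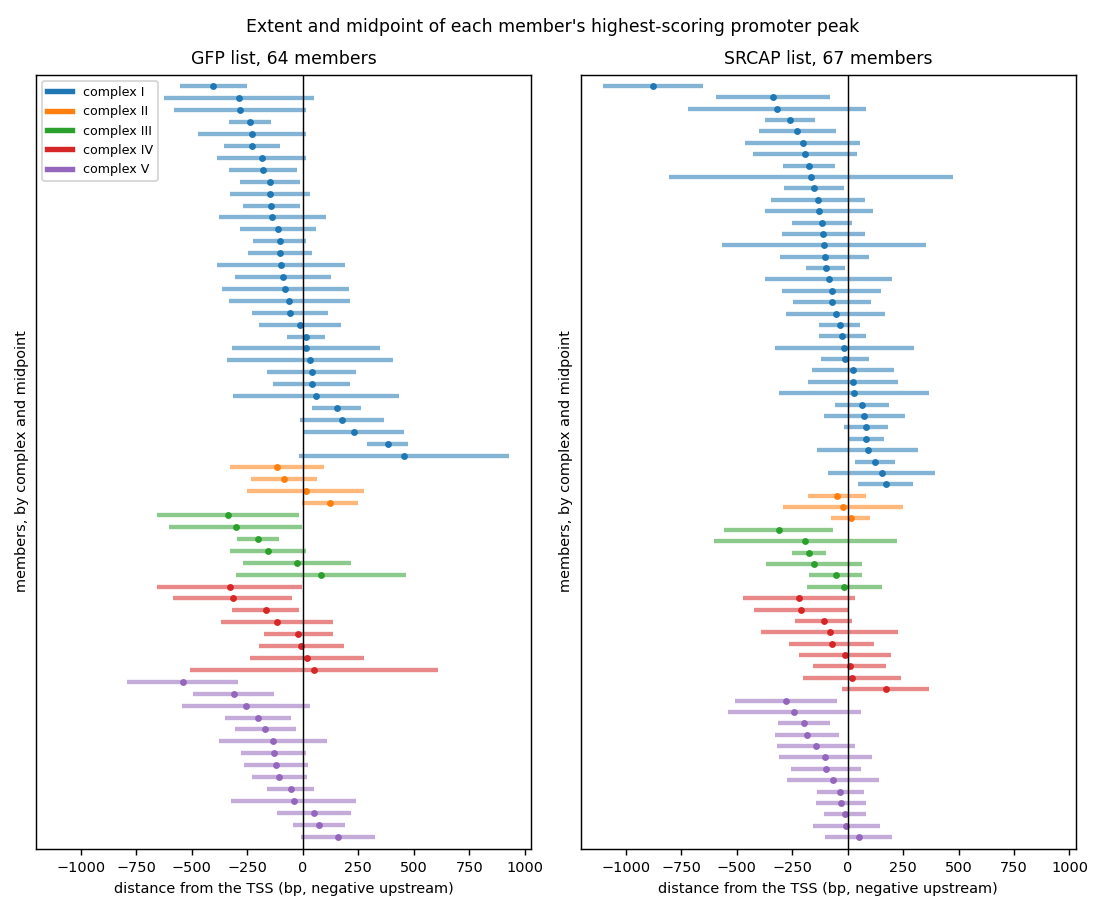
Start to end (bars) and midpoint (dots) of the highest-scoring promoter peak of each member with one (64 for GFP, 67 for SRCAP), as distance in bp from the nearest TSS of the gene, negative upstream, coloured by complex. Most bars cross the TSS line or end just upstream of it, and the SRCAP bar of Ndufa13 stands apart at a midpoint 877 bp upstream.

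The promoters of the members were rich in CpG dinucleotides and often shared. In the 250 bp upstream to 50 bp downstream of a reference TSS, the median observed over expected CpG ratio was 0.807, beside 0.536 over all protein-coding genes. A ratio of at least 0.6 was found in 69 of 94 members (73.4%, 63.7 to 81.3), beside 45.3%. It was also found in 91.0% of the mitochondrial and 76.3% of the cytosolic ribosomal protein genes. Their median ratio was 0.82 in both sets, so this trait was not particular to OXPHOS genes. The median GC content, 56.3%, was close to the 55.3% of all genes.

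Both CpG-rich and CpG-poor members had peaks more often than genes of the same class. The class was taken at the reference TSS, whereas a peak counted at any TSS of the gene, and members had more TSSs than other genes. Of the 69 members with a ratio of at least 0.6, 72.5% (61.0 to 81.6) had a GFP peak and 75.4% (64.0 to 84.0) a SRCAP peak, beside 52.3% and 53.5% of all such genes. Of the 25 below it, 56.0% (37.1 to 73.3) and 60.0% (40.7 to 76.6) had one, beside 20.7% and 20.9%. All 8 restricted forms were in the lower class, with ratios from 0.115 to 0.564, and 2 of them had peaks. Members without a peak had a median ratio of 0.689, beside 0.827 for members in both lists, yet they spanned from 0.115 to 1.20 in Cox4i1.

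**Figure D5:**
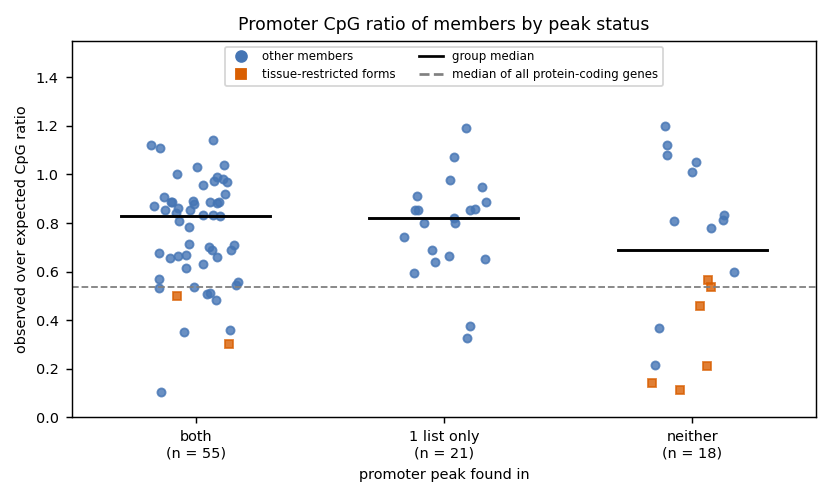
Observed over expected CpG ratio of each member's promoter by whether a peak was found in both lists, 1 list or neither, with squares for the 8 tissue-restricted forms, black lines for group medians and a dashed line for the median of all protein-coding genes, 0.536. The medians are 0.827, 0.822 and 0.689, and the squares all lie at or below 0.564.

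A TSS of another gene lay on the other strand within 1000 bp upstream in 33 of 94 members (35.1%, 26.2 to 45.2), beside 14.1% of all protein-coding genes. The share was 37.2% for the mitochondrial and 18.4% for the cytosolic ribosomal protein genes. Of these 33 divergent members, 26 (78.8%, 62.2 to 89.3) had a peak in each list, beside 59.0% (GFP) and 59.6% (SRCAP) of all divergent genes. Of the 61 others, 62.3% (49.7 to 73.4) had a GFP peak and 67.2% (54.7 to 77.7) a SRCAP peak, beside 31.1% and 31.7%. The members' shares thus lay above those of all genes in both classes, which were again taken at the reference TSS. Of the divergent members, 2 (Ndufa1 and Cox4i1) had no peak.

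A peak at a shared promoter cannot be given to 1 of the genes. The midpoint also lay in the window of another protein-coding gene for 25 of 64 members with GFP (39.1%, 28.1 to 51.3) and 25 of 67 with SRCAP (37.3%, 26.7 to 49.3), beside 20.7% and 20.4% of all protein-coding genes with a promoter peak. Another TSS was the nearer for 9 (14.1%, 7.58 to 24.6) and 10 (14.9%, 8.31 to 25.3), beside 10.7% and 10.4%. Of the 55 members in both lists, 44 had their own TSS nearest in both (80.0%, 67.6 to 88.4), beside 85.9%. Shared windows were thus more frequent among members, while the intervals for a nearer neighbour held the background.

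The position on chromosomes was described because peak density differed between them. Of the 3 X-linked members, Ndufa1 and Cox7b had no peak and Ndufb11 a GFP peak, where 13.6% (GFP) and 9.49% (SRCAP) of all X-linked protein-coding genes had one. On chromosome 8, where 49.3% and 51.4% of all genes had a peak, there were 3 members, of which Ndufb7 was in both lists, Ndufa13 in the SRCAP list and Cox4i1 in neither. Without these chromosomes the members' shares were 70.5% and 73.9%, beside 35.3% and 36.1%.

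Exact consensus sequences of factors known from these promoters were searched on both strands of the same windows. The NRF1 consensus GCGCATGCG was found in 7 members (7.45%, 3.65 to 14.6), beside 2.49% of all protein-coding genes. The YY1 consensus AAGATGGCG was found in 5 (5.32%, 2.29 to 11.9), beside 1.78%, and the consensus TCAAGGTCA of oestrogen-related receptors in 2 (2.13%, 0.585 to 7.43), beside 0.484%. The lower bounds of all 3 lay above the share over all protein-coding genes, on counts of 7, 5 and 2. Mitochondrial ribosomal protein genes had NRF1 in 6.41%, YY1 in 8.97% and the receptor sequence in 0.0%. Cytosolic ribosomal protein genes had them in 1.32%, 6.58% and 0.0%. Over all protein-coding genes in both lists the shares were 3.73%, 3.21% and 0.405%, the first 2 inside the members' intervals. In a window from 500 bp upstream to 100 bp downstream the members' share was 10.6% (5.88 to 18.5) for NRF1, beside 2.88% of all protein-coding genes. For YY1 it was 10.6% (5.88 to 18.5), beside 2.58%. For the receptors it was 3.19% (1.09 to 8.97), beside 1.24%, so this last interval then held its background.

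For each of the other consensus sequences the members' interval held the share over all protein-coding genes. The CRE sequence TGACGTCA was found in 5.32% of members, beside 2.42%, CCGGAAGTG of the ETS family, to which GABP belongs, in 2.13%, beside 2.52%, and CCAATCAG of NFY in 5.32%, beside 4.94%. GGGGCGGGG of SP and KLF factors was found in 10.6%, beside 14.9%, ACTACAATT of ZNF143 in 1.06%, beside 0.497%, the E-box CACGTG in 8.51%, beside 7.70%, and the TATA sequence TATAAA in 10.6%, beside 12.6%. No consensus contained another. Exact matches are a strict count, and a match says nothing about binding.

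The 7 NRF1 matches are shown with up to 10 bases on each side, as far as the window reached, in the direction of the gene, with the match in capitals. A run of 10 capitals holds 2 overlapping matches, 1 on each strand, and the shorter runs of Uqcr11 and Atp5l hold 1 match, on the other strand. They lie at chr17:56717692-56717721 (plus) for Ndufa11, chr4:24897960-24897989 (plus) for Ndufaf4, chr2:140170652-140170681 (plus) for Ndufaf5, chr10:80406808-80406836 (minus) for Uqcr11, chr5:115349101-115349130 (minus) for Cox6a1, chr5:108434430-108434459 (minus) for Atp5k and chr9:44920965-44920992 (minus) for Atp5l, all on GRCm38.
Ndufa11: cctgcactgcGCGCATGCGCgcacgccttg
Ndufaf4: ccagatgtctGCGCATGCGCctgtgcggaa
Ndufaf5: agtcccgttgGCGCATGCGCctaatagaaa
Uqcr11: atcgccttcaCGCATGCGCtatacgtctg
Cox6a1: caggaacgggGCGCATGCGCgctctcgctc
Atp5k: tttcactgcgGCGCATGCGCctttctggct
Atp5l: aaccaataaCGCATGCGCatttccccca

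All 7 members with the NRF1 consensus had a peak in at least 1 list (100.0%, 64.6 to 100.0), beside 80.9% of all members and 65.2% of the 546 protein-coding genes with the consensus. The match lay inside the SRCAP promoter peak in 6 of 7 members (85.7%, 48.7 to 97.4), beside 41.8% of the 546 genes. This share depends on how many genes had a peak at all. A SRCAP peak was present in 6 of the 7 members and 324 of the 546 genes, and 228 of these 324 held the match. The match lay inside the GFP promoter peak in 2 of 7 members, Ndufa11 and Cox6a1 (28.6%, 8.22 to 64.1), beside 20.1%. A GFP peak was present in 5 of the 7 members and 253 of the 546 genes, and 110 of these 253 held the match. Uqcr11, the exception in the SRCAP list, had no SRCAP peak. Over all protein-coding genes, 253 of 546 with the NRF1 consensus had a GFP peak (46.3%, 42.2 to 50.5) and 324 of 546 a SRCAP peak (59.3%, 55.2 to 63.4). Genes without it had 34.7% and 35.1%. In members with the consensus the counts were 5 and 6 of 7, with intervals of 35.9 to 91.8% and 48.7 to 97.4%. Of the 87 members without it, 67.8% had a GFP peak and 70.1% a SRCAP peak, both inside those intervals.

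Other genes of the pathway, which are not members, were counted from lists by function. Of 35 assembly factors of complexes II to V, which insert haem, copper and iron-sulphur clusters or chaperone subunits, 28 had a GFP peak (80.0%, 64.1 to 90.0), 26 a SRCAP peak (74.3%, 57.9 to 85.8) and 23 both (65.7%). Among all protein-coding genes these shares were 35.0%, 35.7% and 27.0%, and among the members 68.1%, 71.3% and 58.5%. Assembly factors of complex IV had the largest list, with 19 of 22 (GFP) and 18 of 22 (SRCAP), where the subunits of complex IV had 8 and 9 of 18. The intervals of this list and of the subunits were 66.7 to 95.3 and 24.6 to 66.3 in the GFP list, and 61.5 to 92.7 and 29.0 to 71.0 in the SRCAP list. The 18 subunits include 7 restricted forms, and the intervals of the 11 widely expressed forms, 28.0 to 78.7 and 35.4 to 84.8, overlap those of the assembly factors in both lists.

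The highest pairs of scores among assembly factors were 153 (GFP) and 144 (SRCAP) for Cox16 and 119 and 127 for Cox14 in complex IV. In complex III they were 163 and 113 for Uqcc1 and 131 and 108 for Bcs1l, which inserts the Rieske protein. The gene for that protein, Uqcrfs1, had no peak. In complex II the pairs were 60 and 53 for Sdhaf3 and 34 and 67 for Sdhaf4, and in complex V 33 and 33 for Atpaf2.

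Of the 2 cytochrome c genes, the somatic form Cycs was in both lists with scores of 44 and 53, and the testis form Cyct in neither. Of 9 genes for regulators of the pathway, 3 had a GFP peak (33.3%, 12.1 to 64.6), 3 a SRCAP peak and 2 both, where the background was 35.0%, 35.7% and 27.0%. Esrra, an oestrogen-related receptor, scored 267 and 277, above all members in the GFP list, and Gabpa scored 77 and 60. Nrf1 was in the GFP list only, and Tfam, which acts on mitochondrial DNA, in the SRCAP list only.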

How the data were processed

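The 2 CUT&RUN libraries of SYAT mESCs, 1 with a GFP antibody and 1 with a SRCAP antibody, were grouped by the antibody that their titles name. Per the labels, 100000 cells were fixed in 0.1% formaldehyde for 5 min, the antibody was diluted 1:50, and inserts of 250 bp were sequenced in pairs of 75 nt. For each library the authors deposited a list of peaks, and the whole-number score of each peak has no stated meaning. The submitters' processing notes name STAR, Picard and MACS2 and the builds mm10 and dm6 without roles, and the study's general peak calling command has an input control, without saying whether it was used for these libraries.

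The peak ends fit GRCm38, whose genome sequence and GENCODE vM21 annotation (101639 transcripts of protein-coding genes) were used. Depth is unknown because no read counts were given. All transcripts of a gene gave windows, and the highest-scoring peak in them gave its score, width and position. The reference TSS for sequence features was the one shared by most protein-coding transcripts. The CpG ratio threshold was 0.6. Blacklisted regions were not removed. The members are counted in full, but 1 member of complex I and 1 neighbouring gene are not reported here by name.

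Counts carry 95% Wilson intervals (scipy 1.17.1, Python 3.11.15, numpy 2.4.6, pandas 2.3.3), and plots were drawn with matplotlib 3.10.9. No test across libraries was possible with 1 library per antibody. The assignment of peaks and the consensus search were tested on simulated data. Alternatives changed the score threshold, window, TSS set, peak assignment, chromosomes and members. Peak values were named for all members of complexes II and III and, in the others, for the 3 members with the highest lower-of-both score, the 2 highest found in 1 list only per list, and members whose peaks did not overlap, and for up to 2 genes per other pathway list. The members and lists were chosen with earlier results of these data known.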

Additional observations from a re-analysis of the deposited data

How the results depend on the processing

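Counting only peaks whose score reached the list median lowered the shares of members to 50.0% (GFP), 47.9% (SRCAP) and 36.2% (both), beside 22.2% and 23.5% of all protein-coding genes in the 2 lists. It moved complex I to 50.0% (GFP) and 52.2% (SRCAP), complex II to 50.0% (GFP) and complex V to 58.8% (GFP) and 41.2% (SRCAP). By construction fewer peaks were counted. The other 83 of 91 alternative values for members and complexes stayed inside the interval of the reported share, among them windows of 2500 bp and 500 bp, protein-coding transcripts alone, any overlap, leaving out chromosomes 8 and X, and structural subunits alone. Some of these 83 could not change, since complexes II, III and V have no member on chromosomes 8 or X. In complexes II and III all members are structural subunits. The intervals of the small complexes are also wide. Of 66 alternatives for other values, 16 moved and 50 did not. No paired analysis was possible because there was 1 library per antibody. Depth, the peak calling control and repeat libraries limit these counts, and a missing peak does not show that SRCAP was absent.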
